A study of Homo sapiens with 9 samples.

Results

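The class I and class II histone deacetylases (HDACs) are the zinc-dependent enzymes that remove acetyl groups from lysines, and valproic acid (VPA) inhibits several of them. The 10 genes were taken by name, out of 26871 genes measured in every comparison of the study. HDAC1, HDAC2, HDAC3 and HDAC8 form class I, HDAC4, HDAC5, HDAC7 and HDAC9 class IIa, and HDAC6 and HDAC10 class IIb. Class I enzymes are mostly nuclear and carry most of the deacetylase activity towards histones, as the catalytic subunits of corepressor complexes. Class IIa proteins have weak activity of their own, bind MEF2 transcription factors and shuttle between nucleus and cytoplasm when kinases phosphorylate them and 14-3-3 proteins hold them outside the nucleus. Class IIb proteins act largely in the cytoplasm. All values below are mRNA levels, which say nothing of the amount or the activity of the enzymes.

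Spinal cord organoids (SCOs), a model of the forming human spinal cord, were grown from the iPSC line WTC and sequenced as bulk poly-A RNA in 9 libraries. There were 3 libraries each of SCOs that received vehicle (FGF), VPA, or VPA + Rapamycin, an inhibitor of mTOR. The exposure was 96 h according to the labels. The study's text gives a shorter exposure in the passage that leads to its sequencing, while some of its other experiments lasted as long as the labels say. The study describes its vehicle as FGF alone and VPA as given together with FGF. The labels give the genotype of all samples as WT, whereas the study describes clones of WTC edited to carry a SOX10 reporter with a recombinase, some of them with indels on the other SOX10 allele, and pools several SCOs of a clone for each RNA extraction. The labels give the libraries the codes C4, C5 and C6, each used once in every condition, but do not tie a code to a clone, and no dose is in the labels.

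The libraries held 15290294 to 17189216 reads on genes with vehicle, 16217858 to 17417338 with VPA and 15609633 to 16795878 with VPA + Rapamycin. Between replicates the chi-square per gene was 4.75 to 39.1, above the value near 1 that counting alone gives. In these mixed cell populations fewer cells of a type and less RNA per cell cannot be told apart. VPA raised 16.4% and lowered 15.7% of all genes tested (edgeR, adjusted p of at most 0.05). Of 10 neuron markers, 5 were lowered by VPA and 0 raised, and their summed level was 1695 to 3004 CPM with vehicle, 1604 to 1724 with VPA and 1700 to 1857 with VPA + Rapamycin. Of 11 mesenchymal markers, 10 could be tested and 3 were raised by VPA, and the sum was 181 to 355, 637 to 791 and 310 to 429 CPM in the same order. COL1A2 alone went from a mean of 72.8 CPM with vehicle to 320 CPM with VPA. The median log2 fold change of the mesenchymal list with VPA was 0.33, and -0.03 to 1.10 over the alternative settings. Of 8 neural crest markers, 7 could be tested and 4 were lowered by VPA, among them SOX10, from 17.03 to 0.476 CPM, and the sum was 285 to 311, 200 to 246 and 249 to 307 CPM. Of 7 HOX genes of the trunk spinal cord, 4 were lowered and 1 raised by VPA. No marker of the lists was at 0 in a condition, but 1 neural crest marker had a mean under 3 counts with VPA. The part of the markers in the HDAC values below was not tested. CPM are counts scaled to a common library total after scaling with TMM factors over the 9 libraries.

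Windows of 300 bases around the RefSeq start of the genes (GRCh38.p14, taken for the start nearest to that of the gene model in the tables) were found for 9 of the 10 genes, all but HDAC5. They are printed for the 4 other genes that passed a test in some comparison. Capitals mark GC boxes, GGGCGG on either strand. HDAC1 (chr1:32291833-32292132, plus strand), HDAC6 (chrX:48801148-48801447, plus strand), HDAC7 (chr12:47819854-47820153, minus strand) and HDAC9 (chr7:18086575-18086874, plus strand) read as follows.
HDAC1: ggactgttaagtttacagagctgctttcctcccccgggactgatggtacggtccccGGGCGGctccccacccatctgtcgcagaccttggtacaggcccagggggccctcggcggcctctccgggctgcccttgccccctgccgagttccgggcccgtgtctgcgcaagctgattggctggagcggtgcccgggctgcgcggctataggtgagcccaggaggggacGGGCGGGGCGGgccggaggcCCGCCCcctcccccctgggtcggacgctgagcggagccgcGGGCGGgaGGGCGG
HDAC6: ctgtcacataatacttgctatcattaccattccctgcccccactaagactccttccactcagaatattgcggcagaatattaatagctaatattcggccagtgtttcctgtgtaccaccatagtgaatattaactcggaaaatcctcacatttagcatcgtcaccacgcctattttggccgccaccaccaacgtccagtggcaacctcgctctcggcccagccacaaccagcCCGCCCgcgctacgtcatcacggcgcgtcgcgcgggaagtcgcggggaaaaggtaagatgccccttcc
HDAC7: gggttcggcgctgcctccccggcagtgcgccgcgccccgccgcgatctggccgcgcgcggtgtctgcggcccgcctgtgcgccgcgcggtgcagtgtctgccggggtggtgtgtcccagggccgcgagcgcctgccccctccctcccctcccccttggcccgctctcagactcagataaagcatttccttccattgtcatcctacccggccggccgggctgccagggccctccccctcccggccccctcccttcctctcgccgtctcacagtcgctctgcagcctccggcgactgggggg
HDAC9: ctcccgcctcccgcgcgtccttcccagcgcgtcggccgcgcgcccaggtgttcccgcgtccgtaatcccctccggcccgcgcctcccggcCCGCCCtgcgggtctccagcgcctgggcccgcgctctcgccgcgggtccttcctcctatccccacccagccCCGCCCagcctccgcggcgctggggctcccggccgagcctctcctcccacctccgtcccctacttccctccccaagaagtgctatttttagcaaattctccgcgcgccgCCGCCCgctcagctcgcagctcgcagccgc
The GC box occurred 6 times in the HDAC1 window, overlapping copies included, 3 times in that of HDAC9, once in that of HDAC6 and not in that of HDAC7. Of the 9 windows 6 held it, against 45% of 35116 windows of the same length. The windows held 9 (HDAC8) to 41 (HDAC9) CpG dinucleotides, where the median of all windows was 14. A CCAAT box lay in the windows of HDAC1 and HDAC10 (34.6% of all windows) and an E-box, CACGTG, in that of HDAC4 (7.26%). The motifs TGACGTCA and TGANTCA were in none of the 9. The HDAC7 start lies 13229 bases inside the gene model of the tables, and that of HDAC2 lies 40160 bases inside. HDAC9 and HDAC4 have 5 annotated starts each, and HDAC6 has 3. The window taken for these genes may therefore not be the one used in SCOs.

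In vehicle SCOs HDAC1 was the most abundant transcript per length, at 34.6 ± 2.11 CPM per kb of gene model (SD, n = 3), followed by HDAC2 at 23.0 ± 2.92. HDAC1 and HDAC2 are the closely related catalytic subunits of the SIN3, NuRD and CoREST complexes. The next 4 genes were HDAC6 at 14.7 ± 2.06, HDAC3 at 12.2 ± 2.62, HDAC5 at 11.6 ± 1.22 and HDAC7 at 9.34 ± 2.17 CPM per kb, and neighbours among these did not differ beyond their spread. HDAC9 stood at 6.11 ± 1.31, within the spread of HDAC7, and HDAC4 at 4.33 ± 0.433. HDAC10 at 1.06 ± 0.518 and HDAC8 at 0.427 ± 0.0623 CPM per kb were last. The gene model of HDAC8 sums 22986 bases of exons, and per kb of its longest CCDS transcript, of 2373 bases, HDAC8 stood above HDAC10, at 4.13 ± 0.603 against 1.96 ± 0.955. On that second scale HDAC6 and HDAC2 were within their spread of each other, at 37.1 ± 5.21 and 36.1 ± 4.58.

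The order per kb of gene model changed with treatment in the middle of the list. HDAC6 stood above HDAC3 with vehicle, though within their spread, and HDAC3 stood above HDAC6 with VPA, at 16.4 ± 1.11 against 10.1 ± 0.797 CPM per kb, and with VPA + Rapamycin, at 14.8 ± 0.680 against 11.5 ± 0.668. HDAC9 was above HDAC4 with vehicle and with VPA and below it with VPA + Rapamycin, at 3.44 ± 0.135 against 4.34 ± 0.107.

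**Figure D1:**
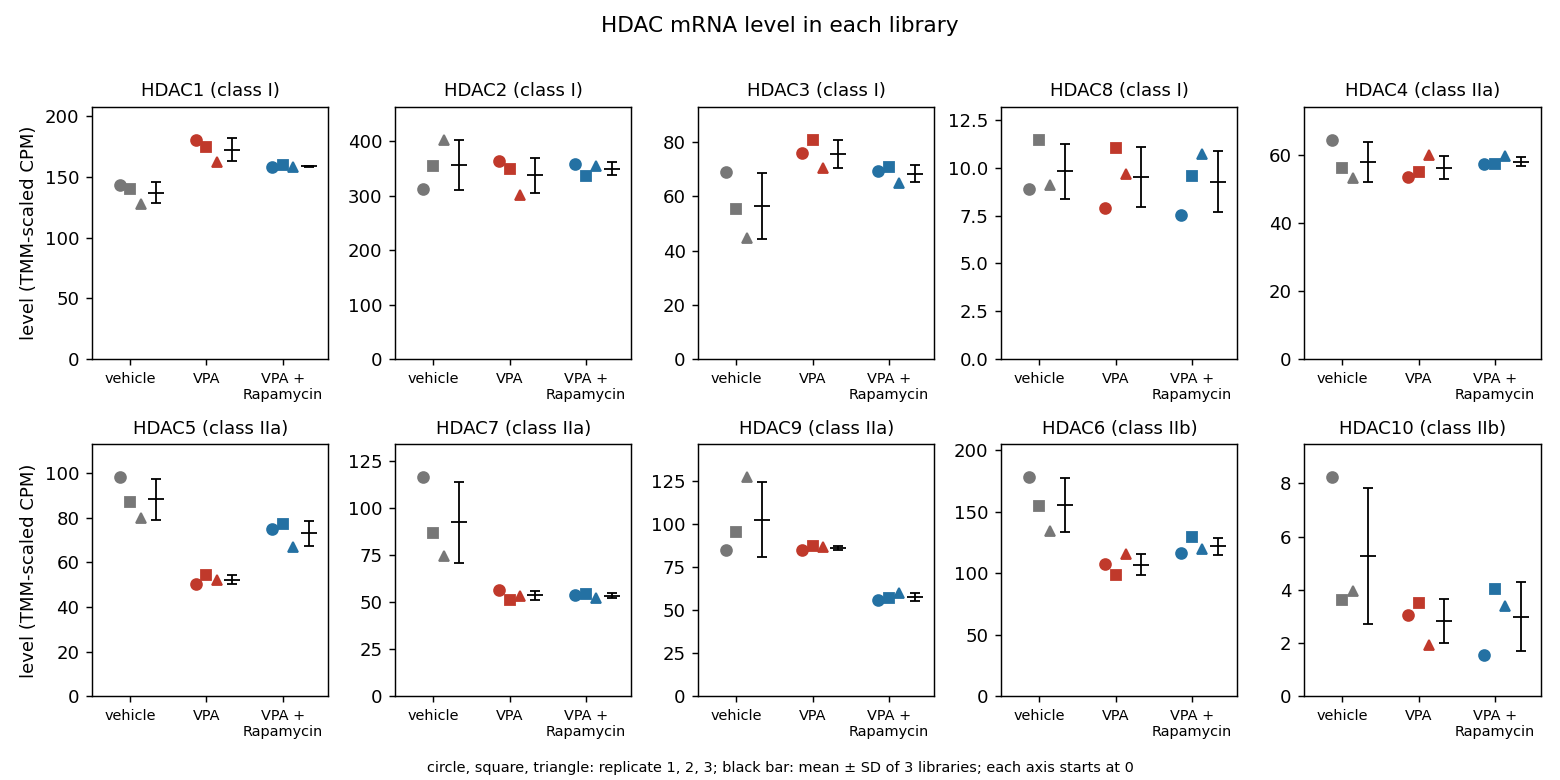
Level of each HDAC gene (TMM-scaled CPM, axes from 0) in the 3 libraries of vehicle, VPA and VPA + Rapamycin, with the mean ± SD as a black bar. HDAC5, HDAC6, HDAC7 and HDAC10 sit lower in every VPA library than in every vehicle library, and HDAC1 and HDAC3 sit higher. Of these, HDAC3 and HDAC10 did not pass the test. The share of all genes that separate in this way is not given. HDAC9 is lowest in the 3 VPA + Rapamycin libraries.

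The first comparison asks what VPA exposure changed. VPA lowered HDAC5, HDAC6 and HDAC7, all of class II, to between 58.1% and 68.8% of their vehicle level, and raised HDAC1 of class I to 126%. Of the 10 members, 1 was raised and 3 were lowered at an adjusted p of at most 0.05 (edgeR's quasi-likelihood test, 3 against 3 libraries), where 16.4% of the 17360 genes tested were raised and 15.7% lowered. The median log2 fold change was -0.17 over the members and -0.00 over all genes tested. No member that passed changed by more than 0.79 on the log2 scale, and the median size of change among all genes called was 0.75.

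HDAC1 had 144, 140 and 128 CPM in vehicle replicates 1, 2 and 3 and 181, 175 and 163 CPM with VPA. Every VPA library was above every vehicle library. This was a log2 fold change of 0.32 with a standard error of 0.10 (adjusted p = 0.0277, edgeR). The call was lost in 5 of 14 alternative settings, which were the replicate number as a block (adjusted p = 0.0701) and the fits without vehicle replicate 2 (0.0796) and without VPA replicate 1 (0.118), 2 (0.111) or 3 (0.0557), with estimates of 0.30 to 0.37.

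HDAC2, which is often redundant with HDAC1, had 312, 354 and 403 CPM with vehicle and 364, 348 and 302 CPM with VPA. The groups overlapped, and the log2 fold change was -0.09 with a 95% interval of -0.35 to 0.17 (adjusted p = 0.606, edgeR). A change of HDAC2 as large as the estimate for HDAC1 therefore lay outside the interval in the upward direction. The antisense gene HDAC2-AS2, whose gene model overlaps HDAC2, fell by 1.87 on the log2 scale (adjusted p = 0.00407) from 2.80 ± 0.567 to 0.766 ± 0.206 CPM, but its mean count was 0.436% of that of HDAC2.

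HDAC3, the catalytic subunit of the NCoR/SMRT complex, had 69.0, 55.4 and 44.8 CPM with vehicle and 76.0, 80.9 and 70.6 CPM with VPA. The groups did not overlap, yet the lowest VPA library was close to vehicle replicate 1. The log2 fold change was 0.42 with a 95% interval of 0.09 to 0.74 and an adjusted p of 0.0506 (edgeR), just past the threshold. It passed in 8 of 14 alternative settings, among them DESeq2 (adjusted p = 0.0310) and the fit without vehicle replicate 1 (adjusted p = 0.00208, estimate 0.59). On simulated counts 17.4% of the calls of DESeq2 were false, against 9.76% of those of edgeR. HDAC8, known for deacetylating the cohesin subunit SMC3, was low in every library, with 132 to 179 reads in vehicle and VPA libraries. Its estimate was -0.05 with an interval of -0.48 to 0.38, so that a moderate change in either direction was not detectable at this depth.

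Among class IIa genes, HDAC5 had 98.2, 86.9 and 79.7 CPM with vehicle and 50.5, 54.4 and 52.0 CPM with VPA. The groups were far apart, and vehicle replicate 1 was the highest library. Its log2 fold change was -0.77 with a standard error of 0.11 (adjusted p = 6.01e-04, edgeR).

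HDAC7 had 117, 86.7 and 74.8 CPM with vehicle and 56.3, 51.5 and 53.6 CPM with VPA. The vehicle libraries were spread widely and the VPA libraries narrowly, without overlap. The log2 fold change was -0.79 with a standard error of 0.15 (adjusted p = 0.00259, edgeR). SLC48A1, a gene on the other strand that overlaps HDAC7, had a mean count of 30.4% of that of HDAC7 and rose by 1.07 on the log2 scale (adjusted p = 0.00396), opposite to HDAC7. The use of the strand in counting is not given in the sources used here, so part of the HDAC7 reads could belong to SLC48A1.

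HDAC9 had 85.1, 95.9 and 127 CPM with vehicle and 85.3, 87.5 and 86.8 CPM with VPA. Vehicle replicate 3 stood above the other libraries, and it also had the highest summed neuron marker level, 3004 CPM against 1695 and 2273 CPM in replicates 1 and 2. Between the treated conditions the 2 did not move together. The neuron sum was 1604 to 1724 CPM with VPA and 1700 to 1857 with VPA + Rapamycin, and HDAC9 was at 85.3 to 87.5 and 56.1 to 60.4 CPM. The part of the neuron markers in the HDAC9 level was not tested. Over all libraries the log2 fold change was -0.26 (adjusted p = 0.184, edgeR), with -0.38 (adjusted p = 0.0228) without vehicle replicate 1 and -0.07 (adjusted p = 0.631) without replicate 3. HDAC4, the remaining class IIa gene, lay at 53.1 to 64.3 CPM with vehicle and 53.5 to 59.9 CPM with VPA, with a log2 fold change of -0.05 and an interval of -0.31 to 0.20. The intervals of HDAC4 and HDAC5, closely related in domain structure, did not overlap, although the difference between them was not tested.

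In class IIb, HDAC6, the deacetylase of tubulin, had 178, 155 and 134 CPM with vehicle and 108, 98.4 and 115 CPM with VPA. All VPA libraries were below all vehicle libraries, and vehicle replicate 1 was the highest, as for HDAC5 and HDAC7. Its log2 fold change was -0.55 with a standard error of 0.12 (adjusted p = 0.00577, edgeR). The calls of HDAC5, HDAC6 and HDAC7 held in each of 14 alternative settings, with adjusted p up to 0.0448 for HDAC6.

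HDAC10, which deacetylates polyamines, was counted with 139, 55 and 64 reads with vehicle and 51, 57 and 34 reads with VPA. Vehicle replicate 1 held more than the other 2 vehicle libraries together. The log2 fold change was -0.91 with an interval of -1.70 to -0.11 (adjusted p = 0.0764, edgeR), and it passed without vehicle replicate 3 (adjusted p = 0.0215) and with no filter on low counts (0.0256). Without vehicle replicate 1 the estimate was -0.43 (adjusted p = 0.330). MAPK12, on the same strand, overlaps HDAC10 with a mean count of 1799 against 61, so that the value of HDAC10 is uncertain.

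**Figure D2:**
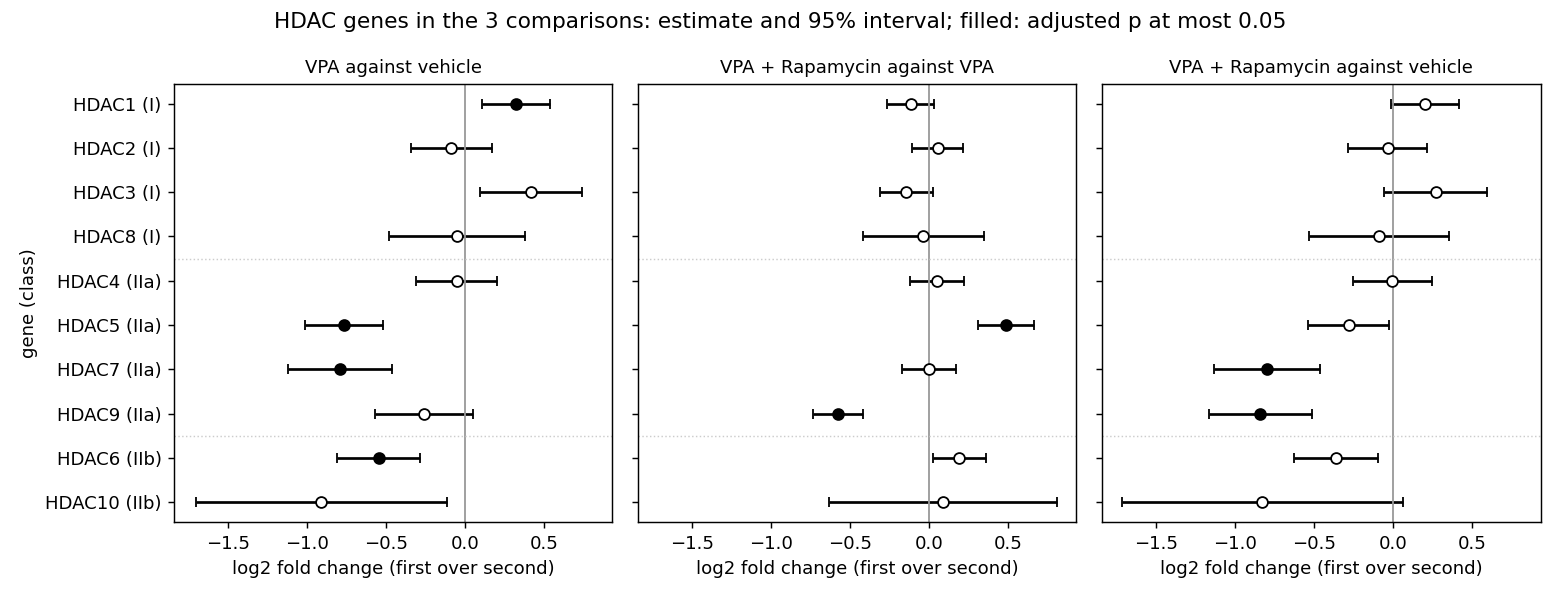
Log2 fold change of each HDAC gene with its 95% interval in the 3 comparisons (edgeR, 3 against 3 libraries), filled where the adjusted p was at most 0.05 over all genes tested. HDAC5 is at -0.77 with VPA and at 0.49 when Rapamycin is added to VPA, HDAC7 is at -0.79 and -0.00, and HDAC9 at -0.26 and -0.58.

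The second comparison asks what Rapamycin changed when it was added to VPA. It raised HDAC5 and lowered HDAC9, both of class IIa, and no class I or class IIb gene passed the test. The count was 1 raised and 1 lowered of 10 members, against 3.01% of 17317 genes raised and 3.73% lowered. This comparison shares the VPA libraries with the first. No condition had Rapamycin alone, so a change by Rapamycin itself and a change in the response to VPA cannot be told apart.

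HDAC5 had 74.9, 77.3 and 66.9 CPM with VPA + Rapamycin. These libraries were above the 3 VPA libraries and below the 3 vehicle libraries. Against VPA the log2 fold change was 0.49 with a standard error of 0.08 (adjusted p = 0.00171, edgeR), and the mean was 140% of the VPA mean.

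HDAC9 had 56.1, 56.9 and 60.4 CPM with VPA + Rapamycin, far below each library of the other conditions. The mean was 66.8% of the VPA mean, the log2 fold change -0.58 with a standard error of 0.08, and the adjusted p 1.35e-04 (edgeR), which ranked HDAC9 as number 43 of the genes tested by p. Both calls held in 13 of 14 alternative settings. They were lost with all 9 libraries in 1 fit, where the estimates were 0.48 for HDAC5 (adjusted p = 0.0554) and -0.58 for HDAC9 (adjusted p = 0.0630), and where 113 genes in all were called in place of 1168.

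HDAC7 had 54.1, 54.5 and 52.2 CPM with VPA + Rapamycin, within the range of the VPA libraries. Its log2 fold change was -0.00 with an interval of -0.18 to 0.17. HDAC6 had 116, 130 and 120 CPM, each above the VPA libraries by a small margin, with a log2 fold change of 0.19 and an interval of 0.02 to 0.36 (adjusted p = 0.165, edgeR). HDAC1 lay at 158, 160 and 158 CPM, below the VPA libraries, with a log2 fold change of -0.12 and an interval of -0.27 to 0.03. For HDAC2, HDAC3, HDAC4, HDAC8 and HDAC10 the estimates were -0.15 to 0.08.

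The third comparison, VPA + Rapamycin against vehicle, shows what differed from vehicle with both drugs present. It shares its libraries with the other comparisons, so its values are given only side by side with them. HDAC7 and HDAC9 were lowered, to 57.8% and 56.2% of the vehicle mean, and 0 members were raised, against 9.81% of 17383 genes raised and 9.22% lowered. With scaling by library totals alone 2060 genes were raised and 1255 lowered, in place of 1705 and 1602. With the same 2 members called under that scaling, HDAC7 and HDAC9 had log2 fold changes of -0.74 and -0.78.

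HDAC7 had a log2 fold change of -0.80 with a standard error of 0.15 (adjusted p = 0.00575, edgeR). HDAC9 was at -0.84 with a standard error of 0.15 (adjusted p = 0.00406, edgeR). Both passed in all 14 alternative settings, those without each vehicle library included.

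HDAC5 was at -0.28 with an interval of -0.54 to -0.03 (adjusted p = 0.115, edgeR), its 3 libraries all below the vehicle libraries. HDAC6 was at -0.36 with an interval of -0.63 to -0.09 (adjusted p = 0.0589, edgeR). HDAC6 passed in 5 of 14 alternative settings, which were DESeq2 (adjusted p = 0.0359), all 9 libraries in 1 fit (0.0254), no filter on low counts (0.0481), the replicate block (0.0474) and the fit without vehicle replicate 3 (0.00750). Without vehicle replicate 3 HDAC5 passed too (adjusted p = 0.0352), which made 4 members called. HDAC1 was at 0.20 (adjusted p = 0.179) and HDAC3 at 0.27 (adjusted p = 0.231), and HDAC3 passed without vehicle replicate 1 (0.44, adjusted p = 0.0231). HDAC2 was at -0.04, HDAC4 at -0.01 and HDAC8 at -0.09. HDAC10 was at -0.83 with an interval of -1.72 to 0.06.

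The 4 class IIa genes thus took different courses over the 3 conditions. HDAC5 was lowest with VPA alone, HDAC7 was low in both treated conditions, HDAC9 was lowest with VPA + Rapamycin, and HDAC4 stayed between 53.1 and 64.3 CPM in all 9 libraries. The differences between these courses were not tested.

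Summed over the 10 genes, the level was 117 ± 6.78 CPM per kb of gene model with vehicle, 115 ± 4.57 with VPA and 113 ± 1.31 with VPA + Rapamycin, and the ranges of the libraries overlapped. Class I genes made up 60.0% ± 2.09 (SD, n = 3) of this sum with vehicle, 71.8% ± 1.78 with VPA and 69.1% ± 0.827 with VPA + Rapamycin. The vehicle libraries ranged from 57.6% to 61.4% and the VPA libraries from 69.7% to 72.8%, without overlap. Class IIa genes went from 26.7% ± 0.897 of the sum to 18.9% ± 0.978 and 20.2% ± 0.324, and class IIb genes from 13.4% ± 1.36 to 9.34% ± 0.873 and 10.7% ± 0.720. As shares of raw counts, which favour long transcripts, class I made up 52.7%, 62.4% and 61.5%. Per kb of CCDS transcript it made up 58.5%, 70.9% and 68.2%. No test was made on these shares.

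**Figure D3:**
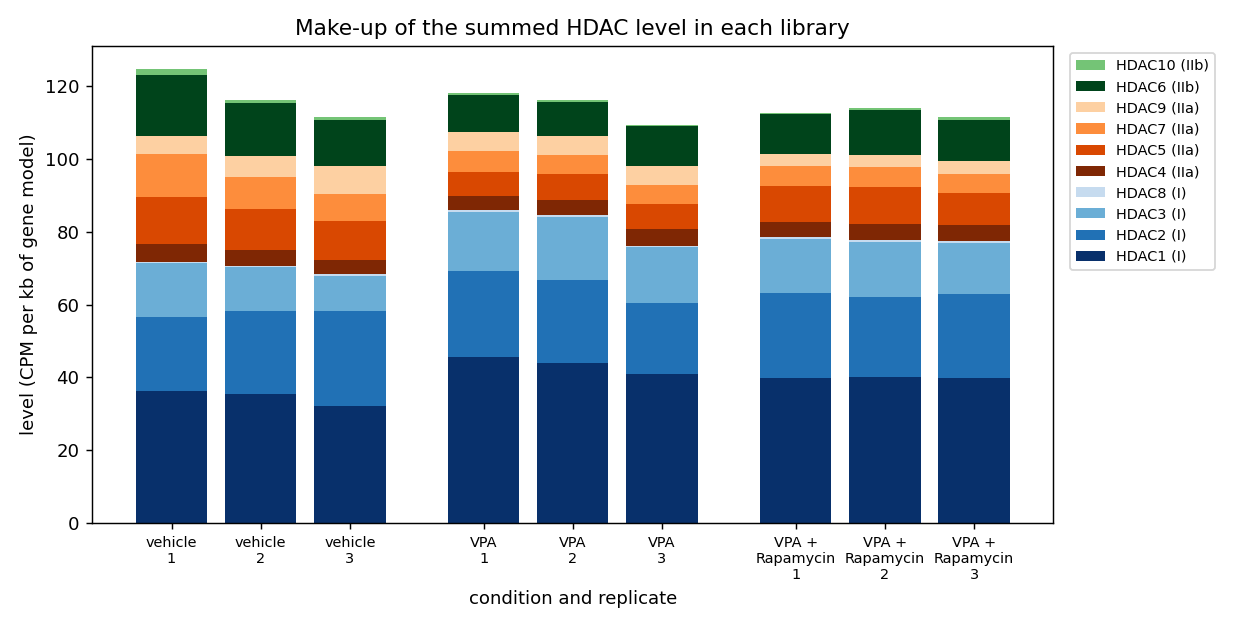
Summed HDAC level (CPM per kb of gene model) in each of the 9 libraries, stacked by gene with class I in blue, class IIa in orange and class IIb in green. The totals lie between 109 and 125 in all libraries, while the blue part makes up 57.6% to 61.4% with vehicle, 69.7% to 72.8% with VPA and 68.1% to 69.7% with VPA + Rapamycin.

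The genes with the most similar course over the 9 libraries were sought for HDAC1 and HDAC5, by the root mean square difference of centred log2 CPM among 16734 genes. For HDAC1 they were PDIA3 (0.0253), SNRPD2 (0.0366) and NDUFS5 (0.0450), where the median gene was at 0.307. PDIA3 is a protein disulfide isomerase, SNRPD2 a core spliceosomal protein and NDUFS5 a subunit of respiratory complex I. For HDAC5 they were SKIDA1 (0.0775), CHD6 (0.0782), a chromatin remodeller, and UNKL (0.0856), against a median of 0.420.

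The other zinc-dependent deacetylase, HDAC11 of class IV, had 10.5, 9.81 and 9.28 CPM with vehicle and 12.96, 12.5 and 19.2 CPM with VPA. VPA replicate 3 was the highest. The log2 fold change was 0.59 with a standard error of 0.20 (adjusted p = 0.0402, edgeR), and the call was lost with the replicate block (adjusted p = 0.0586) and without vehicle replicate 2 (0.104), VPA replicate 1 (0.0553) or VPA replicate 3 (0.203, with an estimate of 0.36). None of the 7 sirtuins, the NAD-dependent deacetylases, passed in any of the 3 comparisons. Of all genes tested 16.4% were raised and 15.7% lowered by VPA. The shares were 3.01% and 3.73% when Rapamycin was added to VPA, and 9.81% and 9.22% with both drugs against vehicle. In alternative settings with VPA, up to 2 genes of the list of HDAC11 and the sirtuins were raised and up to 1 lowered.

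Many of the enzymes that work against deacetylases were lowered by VPA. Of 11 lysine acetyltransferases, 8 were lowered by VPA and 1 was raised, against 15.7% and 16.4% of all genes tested, with a median log2 fold change of -0.44. KAT6B fell by 0.87 (adjusted p = 2.01e-04, edgeR) and CREBBP, a coactivator of many transcription factors, by 0.55 (adjusted p = 0.00194). HAT1, which acetylates newly made histone H4, rose by 0.63 (adjusted p = 0.00520). ATAT1, the acetyltransferase of tubulin and so the counterpart of HDAC6, fell by 0.44 (adjusted p = 0.0215), and was chosen after its value was seen. The number lowered was 5 to 9 over the alternative settings.

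When Rapamycin was added to VPA, 1 of the 11 acetyltransferases passed (3.73% of all genes tested were lowered), HAT1, which fell by 0.35 (adjusted p = 0.0206, edgeR) but missed the threshold without VPA replicate 1, VPA replicate 2 or VPA + Rapamycin replicate 2, at up to 0.117, and in the fit of all 9 libraries (0.251). Against vehicle 3 were lowered and 0 raised with both drugs, where 9.22% and 9.81% of all genes were, led by KAT6B, at -0.83. Over the alternative settings that count was 1 to 8.

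Among the other proteins of HDAC corepressor complexes, 42 could be tested, of which 7 were raised and 10 lowered by VPA, with a median log2 fold change of -0.09. Of all genes tested 16.4% were raised and 15.7% lowered. HMG20B, a CoREST subunit, rose by 1.13 (adjusted p = 1.76e-04, edgeR) from 52.4 to 115 CPM, and CORO2A, found with NCoR, rose by 1.19 (adjusted p = 9.86e-04) from 4.79 to 11.0 CPM. CHD3, a NuRD remodeller, fell by 0.92 (adjusted p = 3.77e-04) and TBL1XR1, of the NCoR/SMRT complex, by 0.87 (adjusted p = 0.00133). None of the 42 passed when Rapamycin was added to VPA, where 3.01% of all genes tested were raised and 3.73% lowered. With both drugs against vehicle 5 were raised and 8 lowered, the 4 named genes among them. Of all genes tested 9.81% were raised and 9.22% lowered in that comparison. Over the alternative settings its counts were 2 to 7 raised and 1 to 12 lowered.

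**Figure D4:**
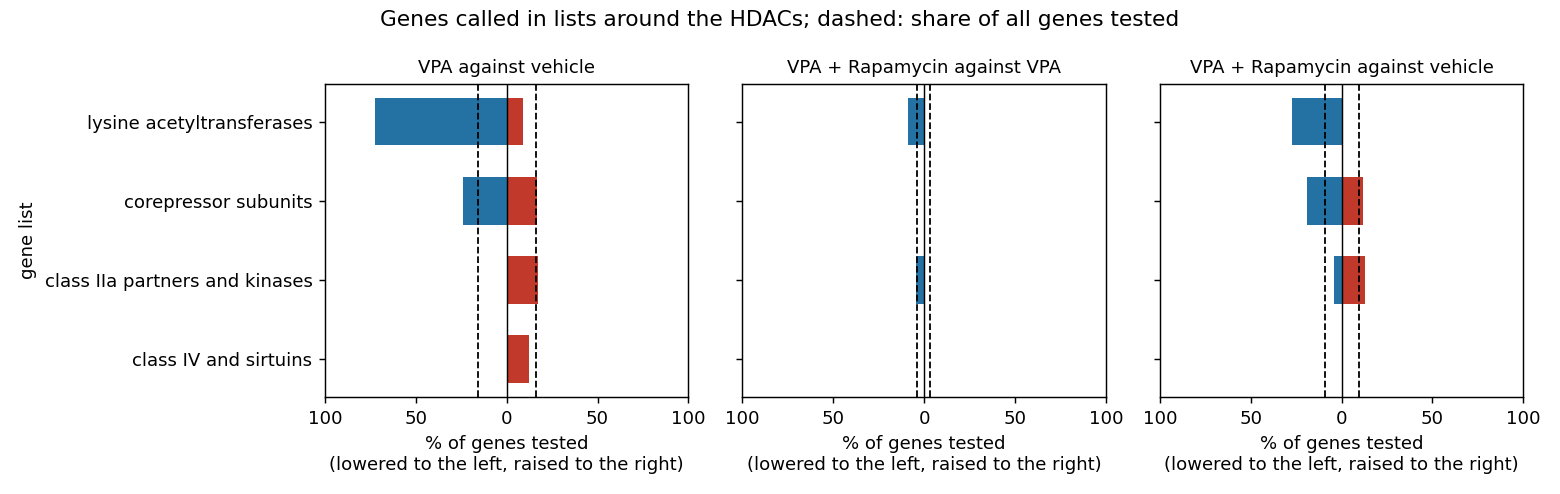
Share of the genes tested in each list that was lowered (left, blue) or raised (right, red) at an adjusted p of at most 0.05, with dashed lines at the shares of all genes tested. With VPA 8 of 11 acetyltransferases are lowered, while the corepressor subunits (10 of 42 lowered, 7 of 42 raised) are closer to the dashed lines at 15.7% and 16.4%.

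Of 23 tested partners and kinases of class IIa proteins, 4 were raised by VPA and 0 lowered, where 16.4% of all genes tested were raised and 15.7% lowered. The share raised was near that of all genes. MEF2C, a transcription factor that class IIa HDACs bind, rose by 1.55 (adjusted p = 5.78e-04, edgeR) from 5.16 to 15.2 CPM, and the kinase CAMK1G rose by 1.10 (adjusted p = 0.00507). With VPA + Rapamycin both were above vehicle, at 1.07 (adjusted p = 0.00539) and 1.04 (adjusted p = 0.0176). The 14-3-3 gene YWHAH was lowered by 0.26 when Rapamycin was added to VPA (adjusted p = 0.0293), and reached 0.223 in the fit of all 9 libraries. With both drugs against vehicle it was lowered by 0.38 (adjusted p = 0.0305, edgeR). Over these 2 comparisons YWHAH missed the threshold in 9 of 28 alternative settings. BRD2, a BET protein that reads acetylated lysines, was lowered by VPA, at -0.33 (adjusted p = 0.0198, edgeR), and with both drugs against vehicle, also at -0.33 (adjusted p = 0.0398). The BRD2 calls were lost without several single libraries, at adjusted p of up to 0.168.

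Of the genes known to rise when HDACs are inhibited, 2 could be tested. H1F0, a linker histone gene, rose by 0.71 with VPA (adjusted p = 0.00135, edgeR), from 567 to 935 CPM, and was at 916 CPM with VPA + Rapamycin. CDKN1A, which encodes the cell cycle inhibitor p21, went the other way, from 60.6 to 36.3 CPM with VPA (log2 fold change -0.75, adjusted p = 0.00188) and to 23.6 CPM with VPA + Rapamycin, lower than with VPA (-0.61, adjusted p = 0.00722). These are mRNA values. For p21 protein the study reports the opposite with VPA, a rise that Rapamycin prevented.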

How the data were processed

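Messenger RNA of SCOs was purified on poly-T beads, primed with random hexamers and sequenced, 3 libraries for each condition. The submitters' processing notes name HISAT2 2.0.5 and featureCounts 1.5.0-p3. The authors deposited 1 table for each pair of conditions, and the deposited counts hold the reads assigned to each gene, not normalized. Gene coordinates matched GENCODE 29 (GRCh38) for all 10 genes. A further 36 columns for single samples, of FPKM and of scaled counts, and 6 columns of condition means were not used, nor were the authors' own fold changes and p-values.

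Comparisons were made table by table in R 4.3.3 with edgeR 4.0.16 (TMM, filterByExpr at its defaults, quasi-likelihood F test). Benjamini-Hochberg adjustment covered all genes tested, at a threshold of 0.05 and with no minimum fold. The F statistic of an estimate gave its standard error. Levels were TMM-scaled CPM over the 9 libraries, also per kb of the tables' gene model length. An exact permutation test of 3 against 3 libraries cannot give a two-sided p under 0.1 and was not used for calls. The labels number the libraries and give them codes shared over the conditions, but do not say that they are separate cultures. The study's heatmap legend describes each column as a separate clone. The p-values measure the spread between libraries, which by that description is a spread between clones of WTC. A level of 3 counts, 0.172 to 0.196 CPM, was taken as the floor, and this covers counting error only.

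The 10 members, the lists and the tests were chosen with earlier results of these data known. The genes named are all 10 members, HDAC11, up to 2 raised and 2 lowered genes of each list with the smallest adjusted p, and the 3 genes closest in course to the member called with the smallest adjusted p in each direction with VPA. Genes that overlap a member and ATAT1 were named in addition, after their values were seen. Counts were simulated for VPA against vehicle (17360 genes), with changed genes set at 1 or 2 on the log2 scale. There edgeR recovered 60.4% of genes changed by 1, with 0 wrong signs. Of its calls 9.76% were false, above the threshold set for the adjusted p. Every member that passed in the data changed by less than 1, so recovery and errors at such sizes were not tested. Alternatives were DESeq2 1.42.0, DESeq2 size factors, upper-quartile scaling, library totals, no filter, a minimum of 10 counts per library, 1 fit over the 9 libraries, the replicate number as a block and leaving out each library. CCDS transcript lengths were added after seeing the data.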

Additional observations from a re-analysis of the deposited data

How the results depend on the processing

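Of 42 alternative counts of members called, 40 stayed within 1.5 times the reported count. With all 9 libraries in 1 fit 0 members passed for VPA + Rapamycin against VPA, and 113 genes in place of 1168. The cause was not tested. Leaving out single libraries gave 3 to 6 members for VPA against vehicle, 2 in each case for VPA + Rapamycin against VPA, and 2 to 4 for VPA + Rapamycin against vehicle. Over all genes it gave 3390 to 6710 in place of 5568, 472 to 1203 in place of 1168 and 1295 to 4314 in place of 3307 in the 3 comparisons, and the cause was not tested. Leaving out single libraries or another setting gave 3 to 8 raised and 6 to 14 lowered corepressor subunits, and 5 to 9 lowered acetyltransferases, for VPA against vehicle.

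The class I share was 52.7% with vehicle, 62.4% with VPA and 61.5% with VPA + Rapamycin as a share of raw counts, which are not divided by length, and 68.2% with VPA + Rapamycin per kb of CCDS transcript. Without single libraries it was 59.2% to 61.2%, 71.2% to 72.8% and 68.8% to 69.5%.

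Signs turned for members with estimates between -0.09 and 0.08 and for HDAC11 at -0.11. Under library totals HDAC7 was at 0.0121 in VPA + Rapamycin against VPA, and HDAC2 at 0.0231 and HDAC4 at 0.0513 in VPA + Rapamycin against vehicle, where upper-quartile scaling put HDAC4 at 0.0245. Without single libraries the log2 fold changes with VPA were -0.174 to 0.0155 for HDAC2, -0.107 to 0.0289 for HDAC4 and -0.167 to 0.0754 for HDAC8. For VPA + Rapamycin against VPA they were -0.0230 to 0.106 for HDAC2, -0.0345 to 0.0290 for HDAC7, -0.158 to 0.0898 for HDAC8, -0.194 to 0.396 for HDAC10 and -0.271 to 0.117 for HDAC11. Against vehicle with both drugs they were -0.127 to 0.0640 for HDAC2, -0.0620 to 0.0726 for HDAC4 and -0.201 to 0.0413 for HDAC8.

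Whether the replicate numbers pair the libraries is not stated in the labels. The codes C4, C5 and C6 go with the numbers in every condition. The study describes the columns of its heatmap as its 3 clones, which points to a library of each clone in every condition. No label ties a code to a clone. If each code is a clone, the block is the fit that uses the pairing. Deviations of libraries with the same number correlated at -0.06 to 0.19. With 3 libraries per condition these correlations cannot decide the pairing, and the block was kept as an alternative. With the replicate number as a block 4, 2 and 3 members passed in the 3 comparisons. HDAC1 (adjusted p = 0.0701, edgeR) and HDAC11 (0.0586) then missed the threshold with VPA and HDAC3 passed (0.0394), and HDAC6 passed in VPA + Rapamycin against vehicle (0.0474).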
